A study of Mus musculus with 4 samples.

Results

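Adhesion genes of neurons and their glia were followed across 4 libraries of cultured ganglia from the dorsal roots of mice, where sensory neurons and their glia lie beside the spinal cord. The 9 rows of the count tables, out of 23282, were those of the symbols Nrxn2, Nrxn3, Nlgn1, Nlgn2, Nlgn3, Cadm1, Cadm3, Cadm4 and Ntm. They were chosen by family and partly because Nrxn2, Nrxn3, Cadm3 and Ntm vary strongly in these libraries. All differences below are therefore descriptions. Intervals and rules give the size of the scatter, and nothing rests on whether a member passes one. Of the 9 genes, 7 had reads and 2, Nlgn1 and Nlgn3, had 0 reads in every library.

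All 4 libraries came from ganglia of C57BL/6 mouse embryos (embryonic day 13), grown as explants on Matrigel and moved to myelination medium at 8 days in vitro (DIV). The ES cultures were electrically stimulated at 10 DIV (20 Hz at 50 mV/mm, for 1 h), and control cultures were not. RNA was taken at 11 or 19 DIV, which gave control at 11 DIV, ES at 11 DIV, control at 19 DIV and ES at 19 DIV, with 1 library each. Each library pooled 3 explants, so there were no replicates, and a difference between libraries cannot be told apart from one between explant pools. Libraries were made with a QuantSeq kit, in which each read is a tag from the 3' end of a transcript. A tag count therefore does not separate forms of a gene that share an end.

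Neurexins are receptors on the axon terminal, made in long and short forms from separate promoters, and neuroligins are their partners on the facing membrane. The Cadm proteins, also called nectin-like or SynCAM proteins, are immunoglobulin adhesion molecules. In peripheral nerve Cadm3 lies on the axon and Cadm4 on the Schwann cell, and the pair bind each other along the myelinated internode. Ntm, neurotrimin, is a membrane-anchored adhesion protein of the IgLON family on neurons.

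The libraries held 5782834 to 7830950 reads. Levels are given as reads and as CPM, reads scaled to a common library size (counts per 1000000 reads, with factors from TMM, the trimmed mean of M values). The libraries differed by far more than counting error. Among genes with a mean of 500 to 3000 reads, the squared difference between a pair of libraries was 208 to 258 times what counting error gives, depending on the pair, and real differences add to this factor. Intervals called spread-adjusted are 95% intervals on counts divided by that factor, and they describe the libraries compared, not the conditions. For ratios they are Clopper-Pearson intervals. For the level in a single library they are exact Poisson intervals with the median factor of 232. The size rule for a higher or lower call asked for at least a 2-fold difference, a 95% counting interval clear of equality and 50 or more reads in whichever library was higher. Of markers of the labelled tissue, 14 to 16 of 16 for neurons and 10 to 11 of 13 for Schwann and satellite glia had reads in each library. Of all 23282 rows, 9632 to 9996 had reads in each library. Any read counted here, and some markers had very few, such as Egr2 with 3 in control at 11 DIV and Erbb3 with 2 in ES at 19 DIV.

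Start regions are shown for 3 members with different patterns, Nrxn3 and Cadm3, both at 0 reads in ES at 19 DIV, and Cadm4, highest there. The RefSeq table on GRCm38.p6, the assembly of the mm10 build named by the submitters' processing notes, matched 6 of the 9 genes, with 10 start sites. The 250 bases before a start site are printed 5' to 3' on the gene's strand, and capitals mark the GC box GGGCGG on either strand, the letters bound by Sp1-type factors. The first Nrxn3 window (chr12:88794254-88794503, + strand) ends where a 1540 kb coding transcript begins, and the second (chr12:89812233-89812482, + strand) where a 520 kb coding transcript begins. Both lie inside the gene, whose annotated start is further upstream. Another Nrxn3 window between them (chr12:88953140-88953389, + strand) is not printed. Whether these windows act as promoters was not tested. The Cadm3 window is chr1:173367696-173367945 (- strand) and the Cadm4 window chr7:24481773-24482022 (+ strand).
Nrxn3, first window: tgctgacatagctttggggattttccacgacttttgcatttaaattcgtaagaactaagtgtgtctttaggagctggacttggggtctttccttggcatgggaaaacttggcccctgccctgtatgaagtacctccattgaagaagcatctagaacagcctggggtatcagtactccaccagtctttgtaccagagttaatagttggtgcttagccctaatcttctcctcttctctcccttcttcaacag
Nrxn3, second window: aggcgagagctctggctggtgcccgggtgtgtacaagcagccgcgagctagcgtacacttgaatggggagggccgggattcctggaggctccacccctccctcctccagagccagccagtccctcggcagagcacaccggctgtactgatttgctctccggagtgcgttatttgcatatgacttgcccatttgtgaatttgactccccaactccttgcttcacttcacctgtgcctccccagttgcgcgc
Cadm3: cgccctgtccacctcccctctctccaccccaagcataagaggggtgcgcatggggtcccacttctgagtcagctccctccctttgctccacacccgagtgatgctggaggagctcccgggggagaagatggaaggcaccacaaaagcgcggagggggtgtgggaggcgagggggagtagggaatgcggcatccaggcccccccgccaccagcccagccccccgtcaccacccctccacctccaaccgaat
Cadm4: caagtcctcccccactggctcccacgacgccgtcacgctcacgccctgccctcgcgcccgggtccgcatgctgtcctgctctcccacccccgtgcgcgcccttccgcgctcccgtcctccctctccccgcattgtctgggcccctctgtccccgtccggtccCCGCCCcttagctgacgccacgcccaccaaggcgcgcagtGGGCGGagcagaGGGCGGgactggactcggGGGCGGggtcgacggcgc

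The Cadm4 window was 75.2% G and C, with 30 CpG pairs and 4 GC boxes. The Cadm3 window was 66.8% G and C with 11 CpG pairs, the second Nrxn3 window 60% with 12 and the first one 45.6% with 2. None of these last 3 held GGGCGG, which stood in 32.7% of the 32851 start windows of the table. The median window had 52.4% G and C and 6 CpG pairs. Nlgn2, described below, had 3 GC boxes in its window. TTCAGCACC, part of the site of the neuronal repressor REST, was in 0.301% of windows (either strand). Of the 10 member windows it was in 1, a window of Nlgn1 (chr3:26153987-26154236, - strand), and in none of the 4 printed here. These are letter matches only.

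**Figure D1:**
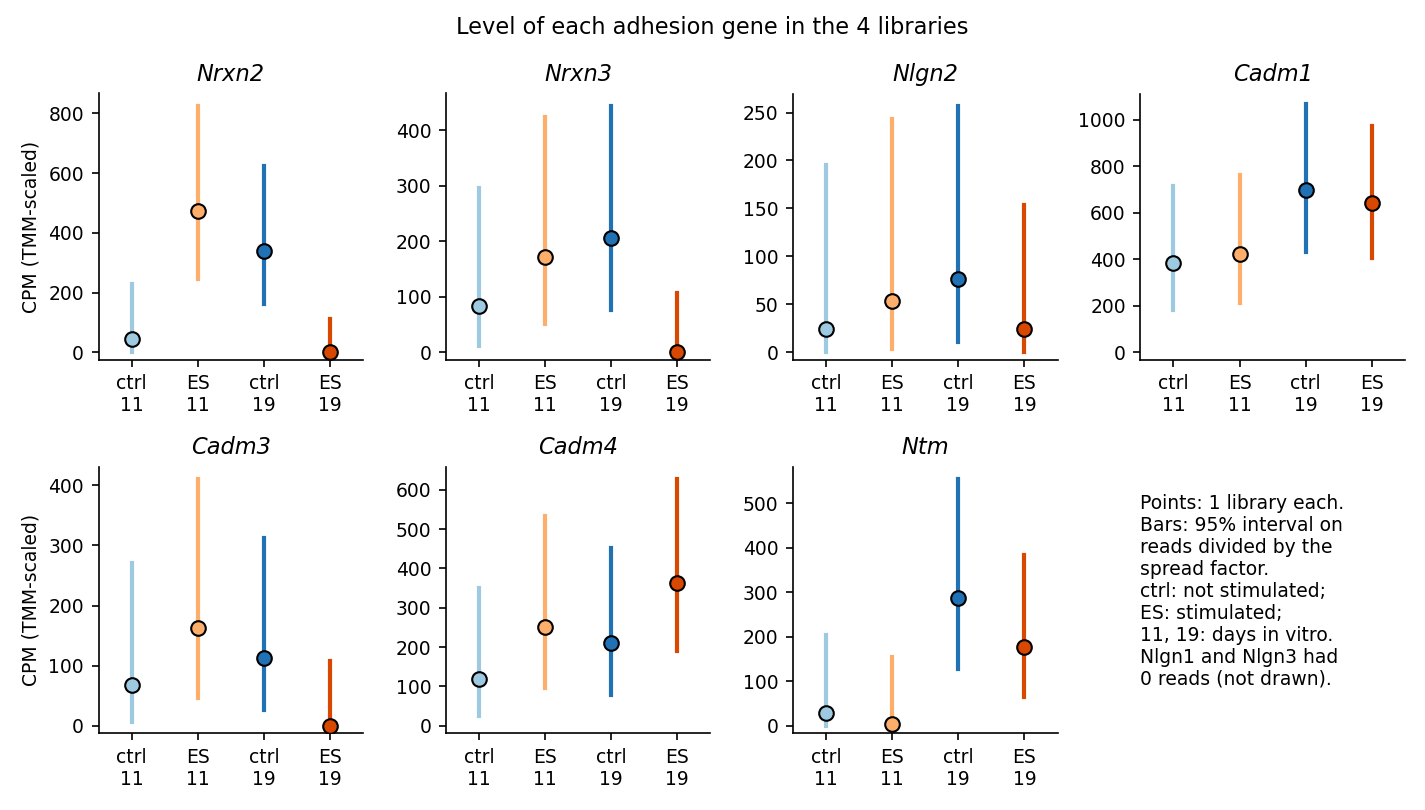
TMM-scaled CPM (vertical axis, linear, 1 scale per gene) of the 7 adhesion genes with reads in the control and ES libraries at 11 and 19 DIV. Points are single libraries and bars are 95% intervals on reads divided by the median spread factor. Nrxn2, Nrxn3 and Cadm3 sit at or near 0 in ES at 19 DIV, while Cadm4 is highest there.

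Nrxn2 had the widest swing among the genes seen in all 4 libraries. It encodes a neurexin and lies on chromosome 19 (6418731 to 6544169 on GRCm38, + strand, protein-coding, GENCODE M21). It had 248 reads (42.8 CPM) in control at 11 DIV, 2800 (473 CPM) in ES at 11 DIV, 2336 (339 CPM) in control at 19 DIV and 12 (1.5 CPM) in ES at 19 DIV. ES at 11 DIV and control at 19 DIV were thus the high pair, with overlapping spread-adjusted intervals (245 to 825 and 163 to 622 CPM). ES was 11-fold above control at 11 DIV (spread-adjusted 1.87 to 284) and 226-fold below it at 19 DIV, where the ratio of 0.00443 had a spread-adjusted upper end of 0.4. Without stimulation the gene was 7.92-fold higher at 19 than at 11 DIV (1.19 to 273). In ES cultures the ratio of 19 to 11 DIV was 0.00318, with an upper end of 0.31. The 4 comparisons share libraries and do not count as separate evidence. Of the 3 annotated genes that overlap Nrxn2 on the other strand, Slc22a12 had a row, with 1 read in ES at 11 DIV and 0 elsewhere.

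Nrxn3 was low in the same pair of libraries as Nrxn2. This neurexin gene spans 1612 kb of chromosome 12 (88722876 to 90334935, + strand). It had 488 reads (84.2 CPM) in control versus 1019 (172 CPM) in ES at 11 DIV, and 1412 (205 CPM) in control versus 0 in ES at 19 DIV. ES at 11 DIV was 2.04-fold above control (spread-adjusted 0.355 to 17.3) and control at 19 DIV was 2.43-fold above control at 11 DIV (0.452 to 22.5), so both intervals held 1 as well as much larger ratios. With 0 put at 3 reads, ES at 19 DIV was at least 545-fold lower than control at 19 DIV and at least 458-fold lower than ES at 11 DIV. The spread-adjusted upper ends of these ratios were 0.731 and 1.15. A count of 0 in ES at 19 DIV allowed up to 0.376 CPM by the 3-read floor. The upper end of the 95% exact Poisson interval was 0.462 CPM on the reads as counted and 107 CPM on reads divided by the median spread factor of 232. The 5 annotated genes inside Nrxn3 had no row in the tables.

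The neuroligins gave few reads. Nlgn1 (chromosome 3, 25426215 to 26332460, - strand) and Nlgn3 (chromosome X, 101299168 to 101325963, + strand) had 0 reads in all 4 libraries. The 3-read floor allowed 0.376 to 0.518 CPM, depending on the library. The upper ends of the 95% intervals were 0.462 to 0.637 CPM on reads as counted and 107 to 148 CPM with the spread factor. Their transcripts were not detectable at this depth, which does not show that they were absent. Nlgn2, the neuroligin known from inhibitory synapses (chromosome 11, 69823122 to 69837784, - strand), had 140 reads (24.2 CPM) in control versus 316 (53.3 CPM) in ES at 11 DIV. At 19 DIV it had 525 (76.2 CPM) in control versus 197 (24.7 CPM) in ES. It was 2.21-fold higher in ES at 11 DIV (spread-adjusted 0.0594 to 643) and at 0.324 times control at 19 DIV (0.00315 to 6.01), the same direction as both neurexins at each day. Its intervals included equality in all 4 comparisons, and its 140 to 525 reads compare with spread factors of 208 to 258.

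Among the Cadm genes, the axonal Cadm3 and the glial Cadm4 parted in ES at 19 DIV. Cadm3 (chromosome 1, 173333258 to 173367695, - strand) had 397 reads (68.5 CPM) in control versus 962 (162 CPM) in ES at 11 DIV, then 778 (113 CPM) in control versus 0 in ES at 19 DIV. ES was 2.37-fold higher at 11 DIV (spread-adjusted 0.363 to 27.2) and at least 300-fold lower at 19 DIV with 0 put at 3 reads. The spread-adjusted upper end of that ratio was 1.77. The genes Ackr1 and Aim2, which overlap Cadm3, had 0 reads.

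Cadm4 (chromosome 7, 24482023 to 24504539, + strand, with no overlapping gene) had 695 reads (120 CPM) in control versus 1482 (250 CPM) in ES at 11 DIV. It had 1455 (211 CPM) in control versus 2902 (363 CPM) in ES at 19 DIV. ES was above control on both days, 2.09-fold at 11 DIV (spread-adjusted 0.5 to 11.2) and 1.72-fold at 19 DIV (0.608 to 5.47), and both intervals included equality. The ratio of Cadm4 to Cadm3 reads, not per length, was 1.75 in control versus 1.54 in ES at 11 DIV and 1.87 in control at 19 DIV. In ES at 19 DIV it was at least 967 with Cadm3 put at 3 reads, a floor that covers counting error only. The spread-adjusted upper end of Cadm3 there was 107 CPM, and the spread-adjusted interval of Cadm4 was 191 to 628 CPM. These intervals also allow a far smaller ratio.

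Cadm1, the broadly expressed member of the family (chromosome 9, 47530173 to 47857637, + strand), was the steadiest of the 7. It had 2227 reads (384 CPM) in control versus 2510 (424 CPM) in ES at 11 DIV, and 4806 (697 CPM) and 5142 (644 CPM) at 19 DIV. ES was at 1.1 times control at 11 DIV (spread-adjusted 0.443 to 2.78) and 0.924 times at 19 DIV (0.482 to 1.78). It was 1.81-fold higher at 19 DIV in control (0.811 to 4.37) and 1.52-fold in ES (0.674 to 3.68). No call was made in any comparison, and its log2 range over the libraries was 0.86, against a median of 1.00 for the 678 genes with a mean of 1500 to 5000 reads.

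Ntm differed by day rather than in the way of the neurexins. The gene spans 968 kb of chromosome 9 (28994750 to 29963141, - strand). It had 171 reads (29.5 CPM) in control versus 26 (4.39 CPM) in ES at 11 DIV, against 1979 (287 CPM) and 1410 (177 CPM) at 19 DIV. Both 19 DIV libraries were above both 11 DIV libraries. Control was 9.73-fold higher at 19 than at 11 DIV (spread-adjusted 1.09 to 1264) and ES 40.2-fold higher (counting interval 27.3 to 61.8), with a spread-adjusted lower end of 0.72. ES was at 0.149 times control at 11 DIV (counting interval 0.0944 to 0.225) and 0.615 times at 19 DIV (spread-adjusted 0.178 to 1.98). The first ratio rests on 26 reads, and its spread-adjusted upper end was 97.5.

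**Figure D2:**
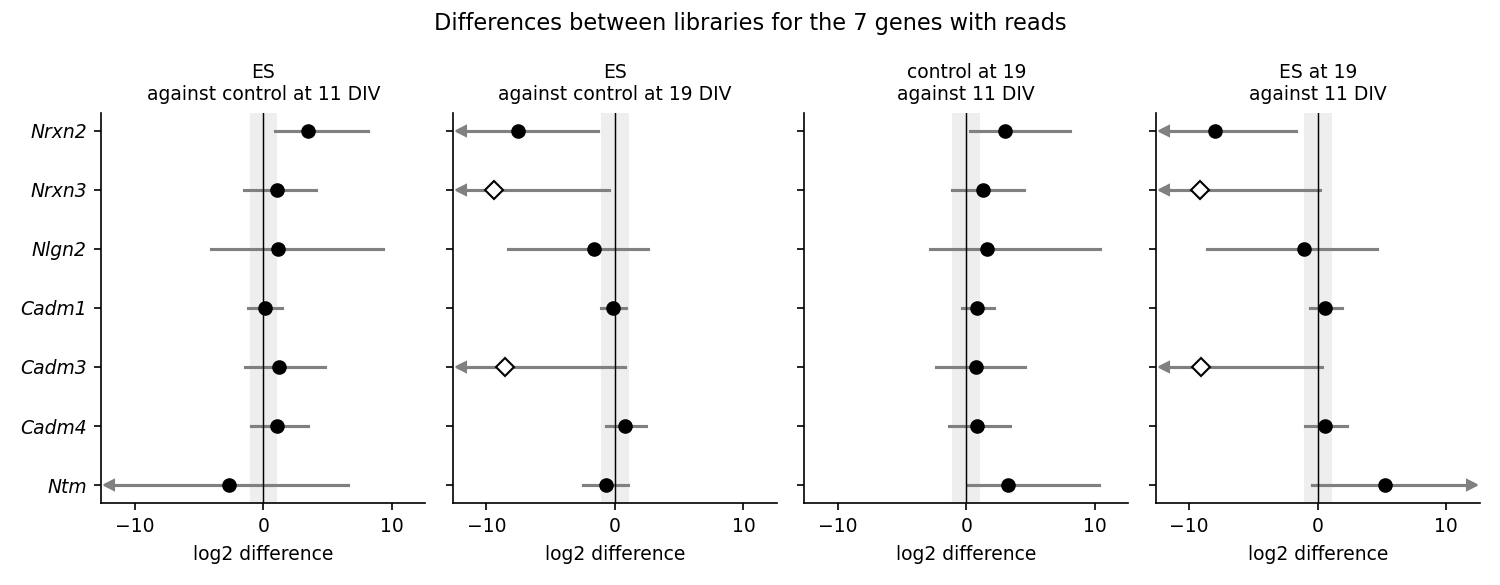
Log2 difference (horizontal axis, first library minus second, prior count 2) of the 7 adhesion genes in the 4 comparisons, with spread-adjusted 95% intervals as grey bars and arrowheads where they run off the axis. White diamonds mark genes at 0 reads in 1 library and the shaded band is less than 2-fold. Nrxn2 lies to the right of 0 for ES at 11 DIV and for control over time, and to the left in the other 2 panels.

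Counted over the 9 genes, the size rule called 5 higher (Nrxn2, Nrxn3, Nlgn2, Cadm3, Cadm4) and 1 lower (Ntm) in ES at 11 DIV. At 19 DIV it called 0 higher and 4 lower (Nrxn2, Nrxn3, Nlgn2, Cadm3). The same rule called 28.9% of the 9834 rows tested higher and 29.6% lower at 11 DIV. At 19 DIV it called 29.4% of 10027 higher and 31.3% lower. In control, 4 genes were higher at 19 DIV (Nrxn2, Nrxn3, Nlgn2, Ntm), with 30.9% of rows called higher and 29.8% lower. In ES, 1 was higher (Ntm) and 4 lower (Nrxn2, Nrxn3, Nlgn2, Cadm3) at 19 DIV, with 30.9% and 30.5% of rows called. Since the genes were chosen from these values, nothing is read from their share.

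The spread-adjusted rule, which asked the same with the spread-adjusted interval, called 0.824% of rows in either direction for ES at 11 DIV and 0.918% for ES at 19 DIV. It called 1.23% for control over time and 0.911% for ES over time. Its calls among the members were Nrxn2 in every comparison, Nrxn3 in ES against control at 19 DIV and Ntm in control over time, and nothing is read from these either. The median log2 difference of the 7 genes with reads was 1.06 for ES at 11 DIV and -1.61 for ES at 19 DIV, 1.28 for control over time and -1.10 for ES over time. The 11665 genes that averaged 10 reads or more had a median of 0.00 in each comparison. Putting counts of 0 at 3 reads did not move the 4 medians of the 7 genes. It could not have done so, since the only counts of 0 were those of Nrxn3 and Cadm3 in ES at 19 DIV. Both genes stay far below the median gene when put at 3 reads.

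**Figure D3:**
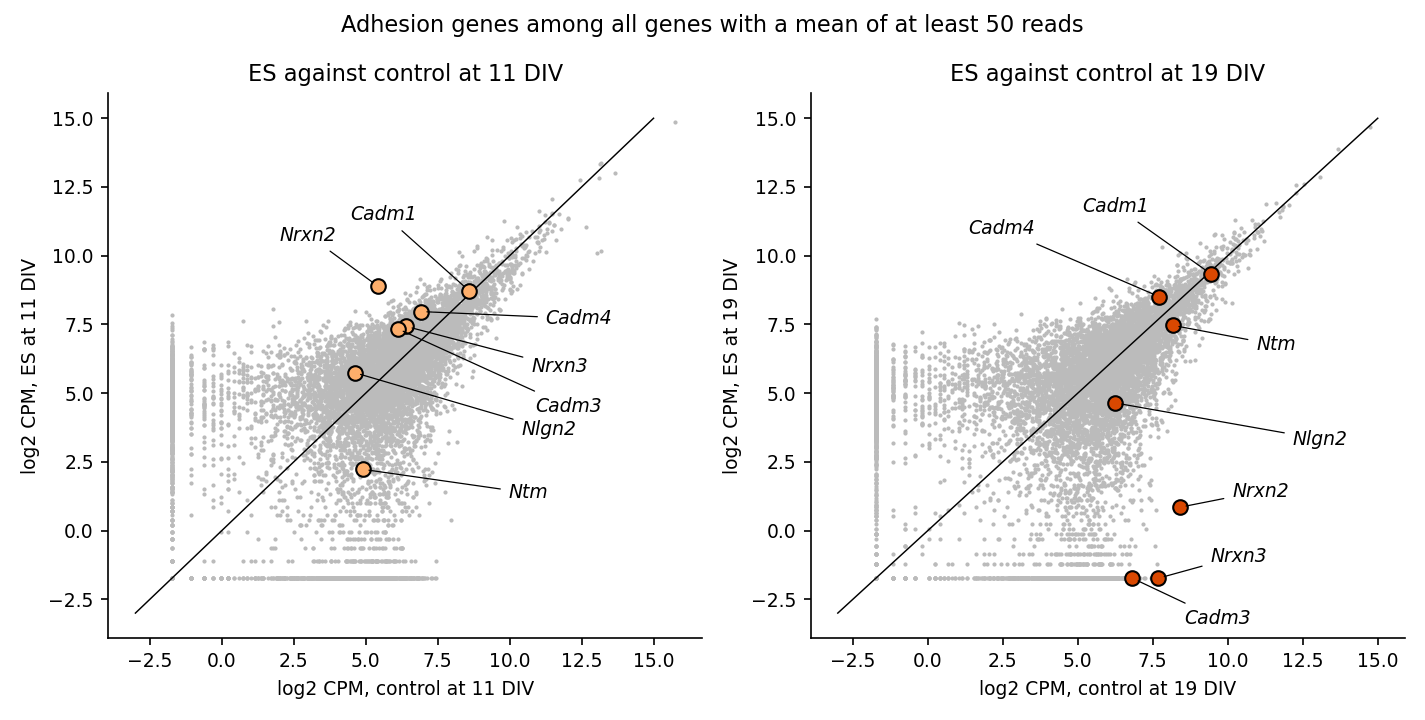
Log2 CPM (prior count 2) in ES against control at 11 DIV and at 19 DIV, for every gene averaging 50 reads or more (grey) and the 7 adhesion genes (coloured). Points on the lowest line have 0 reads in the ES library, and Nrxn3 and Cadm3 lie on it at 19 DIV, with Nrxn2 just above.

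How often a count of 0 occurred depended on the level of the gene. Of the 2565 genes with at least 300 reads in each of the other 3 libraries, 17 (0.663%) had 0 reads in ES at 19 DIV, and Nrxn3 and Cadm3 were 2 of the 17. The share was 0.744% in control versus 0.888% in ES at 11 DIV and 0.775% in control at 19 DIV, with no member among them. Of the 5153 genes with a mean of 100 to 500 reads, 34.7% had a library at 0, against 1.4% of those with 500 to 1500. Nrxn3 and Cadm3 were chosen partly from these values, so nothing is read from their place among the 17. Genes with a mean of 500 to 1500 reads had a median log2 range over the 4 libraries of 1.54 (quartiles 1.07 and 2.25, 2144 genes). In that class Nrxn2 had a range of 8.03, Nrxn3 of 9.41, Cadm3 of 9.08 and Ntm of 5.94, which is why they were chosen. Cadm4, with a mean of 1634 reads, had a range of 1.60, above the upper quartile of 1.41 of the genes with 1500 to 5000 reads.

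**Figure D4:**
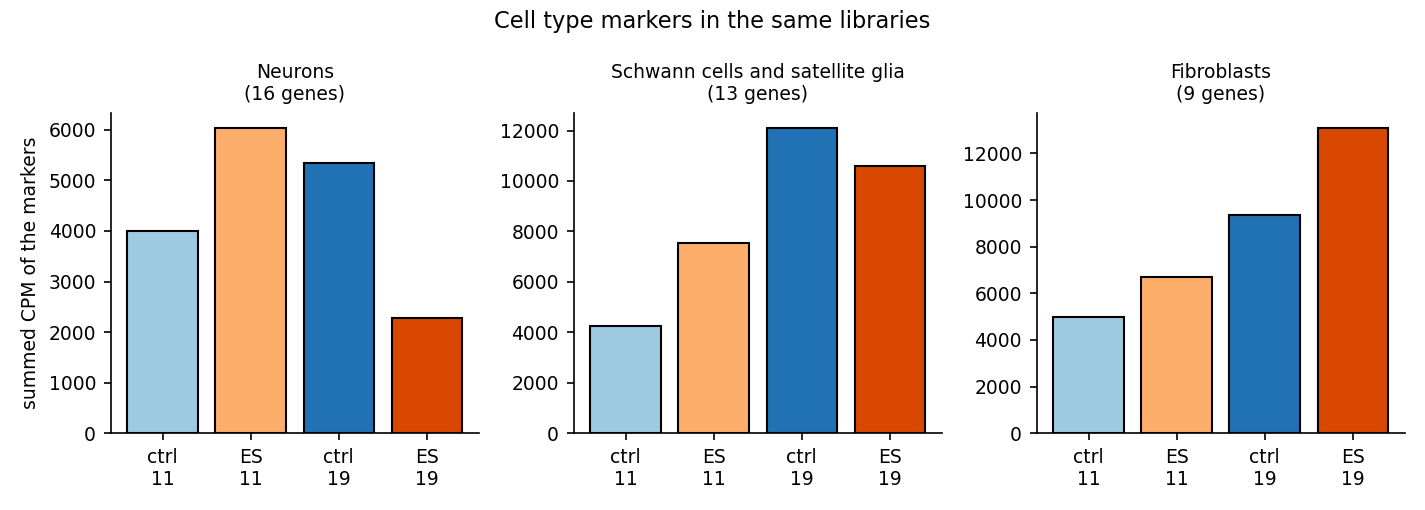
Summed TMM-scaled CPM (vertical axis, from 0, 1 scale per panel) of marker genes of neurons, of Schwann cells and satellite glia, and of fibroblasts in the 4 libraries, 1 bar per library. The neuron sum is lowest in ES at 19 DIV, at 2283 CPM, and the fibroblast sum is highest there, at 13080 CPM.

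The summed neuron markers had the same order across the libraries as Nrxn2 and Cadm3, and the glia and fibroblast sums given below did not. The other members with reads had other orders, and Nrxn3 and Nlgn2 were highest in control at 19 DIV. The members were chosen from these values, so nothing is read from the match. The 16 neuron markers summed to 3992 CPM in control versus 6032 in ES at 11 DIV, and to 5338 in control versus 2283 in ES at 19 DIV. This is 1.51 and 0.428 times control. Of these markers Pou4f1 was at 0 reads in control at 11 DIV, and Snap25 and Isl1 in ES at 19 DIV. In ES at 19 DIV the size rule called 11 of the 16 lower and 0 higher, with a median log2 difference of -1.41, beside 31.3% of all rows lower and 29.4% higher. In a mixed tissue, fewer neurons and less of a transcript per neuron cannot be told apart. Per 1000 neuron marker reads, Nrxn2 had 10.7 reads in control versus 78.4 in ES at 11 DIV, and 63.5 in control versus 0.658 in ES at 19 DIV. Nrxn3 had 21.1 versus 28.5 at 11 DIV and 38.4 versus 0 at 19 DIV, and Cadm3 had 17.2 versus 26.9 and 21.1 versus 0. Nlgn2 had 6.05 versus 8.84 at 11 DIV and 14.3 versus 10.8 at 19 DIV. For these 4 genes ES was above control at 11 DIV and below it at 19 DIV on this scale too, and the gap of Nlgn2 at 19 DIV was smaller than in CPM. Ntm had 7.39 reads per 1000 in control versus 0.728 in ES at 11 DIV, and 53.8 versus 77.3 at 19 DIV, where its CPM ran the other way. The part of cell makeup in these differences was not tested.

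The 13 Schwann and satellite glia markers summed to 4257 CPM in control versus 7559 in ES at 11 DIV, and to 12091 and 10579 at 19 DIV. Markers at 0 reads were Cdh19, Erbb3 and Fabp7 in control and Cdh19 and Erbb3 in ES at 11 DIV, Erbb3 and Fabp7 in control and S100b and Cdh19 in ES at 19 DIV. Per 1000 of these glial reads, Cadm4 had 28.2 reads in control versus 33.1 in ES at 11 DIV, and 17.5 and 34.4 at 19 DIV. Cadm1 had 90.3, 56.1, 57.7 and 60.9 in the same order. The 9 fibroblast markers summed to 4990 and 6712 CPM at 11 DIV and to 9353 and 13080 CPM at 19 DIV, with Fbln1 and Twist1 at 0 in ES at 11 DIV and Twist1 in control at 19 DIV. The 8 macrophage markers (56.3 to 115 CPM) and 6 endothelial markers (38.1 to 85.1 CPM) were low in every library, and Aif1, Pecam1, Tek and Cldn5 were at 0 throughout.

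The other genes of these families were read unevenly. Cadm2, Negr1, Opcml and Iglon5, relatives of the Cadm and IgLON members, had 0 reads in control at 11 DIV, and Lsamp had 0 in every library. All 4 of the former were called higher in ES at 11 DIV by the size rule, beside 28.9% of all rows higher and 29.6% lower. At 19 DIV 2 of 4 were higher and 1 lower in ES, beside 29.4% and 31.3%. Over time 3 of 3 were higher in control, beside 30.9%, and 2 of 4 lower in ES, beside 30.5%. Where control at 11 DIV was compared, its 0 reads left no other direction. Nothing is read from these counts, and none of the genes passed the spread-adjusted rule. Negr1, the IgLON called neuronal growth regulator, had 0 and 582 reads at 11 DIV and 100 and 1475 at 19 DIV in control and ES, so ES was higher on both days, unlike Ntm. Its ES level was 12.7-fold above control at 19 DIV (spread-adjusted 0.85 to 46558). Iglon5 had 0 and 382 reads at 11 DIV and 564 and 375 at 19 DIV.

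A list of 20 genes tied to neurexin binding was read in part. Of these 20, 8 had 0 reads in all libraries, among them Cbln1, Cbln2, Cbln4, Nxph1, Nxph2 and Nxph3. Of all 23282 rows, 12884 had reads in any library, so nothing is read from the 8. In ES, 1 was higher and 0 lower of the 6 tested at 11 DIV, and 1 higher and 5 lower of 10 at 19 DIV. In control 6 of 9 were higher at 19 DIV and 0 lower, and in ES 2 of 7 were higher and 0 lower. Over all rows the rule called 28.9% to 30.9% higher and 29.6% to 31.3% lower in these comparisons, and with so few genes nothing is read from the counts. Dag1, dystroglycan, which also anchors Schwann cells to the basal lamina, had 5071 and 7645 reads at 11 DIV and 10681 and 11242 at 19 DIV in control and ES. Its ES level was 1.47 times control at 11 DIV (spread-adjusted 0.86 to 2.57) and 0.909 times at 19 DIV (0.593 to 1.39). Clstn1, a calsyntenin, had 1102 and 2185 reads, then 2319 and 2006, or 1.94 times control at 11 DIV (0.624 to 6.92) and 0.747 times at 19 DIV (0.262 to 2.08). No gene of this list passed the spread-adjusted rule.

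Cytoplasmic scaffolds that hold neurexins, neuroligins and Cadm tails were called in both directions, beside 28.9% of all rows higher and 29.6% lower at 11 DIV and 29.4% and 31.3% at 19 DIV. Of 28, 7 were higher and 3 lower of 21 tested in ES at 11 DIV, and 5 higher and 5 lower of 19 at 19 DIV. Over time, 3 were higher and 2 lower of 18 in control, and 5 higher and 8 lower of 20 in ES, beside 30.9% and 29.8% of all rows in control and 30.9% and 30.5% in ES. Sdcbp, syntenin, which binds the tails of neurexins, had 4099 reads in control versus 2101 in ES at 11 DIV, then 2846 and 4902 at 19 DIV. It stood at 0.501 times control at 11 DIV (spread-adjusted 0.21 to 1.12) and at 1.49 times at 19 DIV (0.699 to 3.31), the opposite order to Nrxn2 on both days. Epb4.1l2, a protein of the membrane skeleton, was at 1.73 times (0.763 to 4.17) and 0.88 times control (0.438 to 1.77). All 4 of these intervals included equality, and no scaffold passed the spread-adjusted rule.

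The genes whose pattern lay nearest to Nrxn2 were Kif5c, Eps15, Onecut2, Abca8a and Kmt2c. Likeness was the root mean square difference of log2 CPM, centred on each gene's mean over the 4 libraries, among 2962 other genes averaging 500 reads or more. It was 1.00 for Kif5c, a kinesin heavy chain of neurons, with 582 and 1281 reads in control and ES at 11 DIV and 951 and 11 at 19 DIV. It was 1.05 for Eps15, 1.08 for Onecut2, 1.11 for Abca8a and 1.18 for Kmt2c, which had 15, 20, 0 and 3 reads in ES at 19 DIV. All 5 had 20 reads or fewer in ES at 19 DIV. They were picked for likeness to Nrxn2 over these same libraries, so low counts there follow from the choice.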

How the data were processed

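RNA was counted in 4 libraries, 1 per group. The authors deposited raw counts of reads for each gene symbol. Bowtie2, bedtools and the build mm10 are named in the submitters' processing notes. Tool versions, and how duplicate reads and strand were handled, are not given in the sources, so reads of overlapping genes could not be told apart. From these counts, TMM factors were computed with edgeR 4.0.16 in R 4.3.3, and folds, exact intervals and the spread factor with Python 3.11.15, numpy 2.4.6, pandas 2.3.3 and scipy 1.17.1, with matplotlib 3.10.9 for figures. Log2 differences used a prior count of 2. The functions were tested on simulated data. Intervals and floors (3 reads) cover counting error only, unless spread-adjusted.

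Positions came from GENCODE M21 on GRCm38 and start windows from RefSeq. All members are named. From each list of related genes the 2 with the most reads, and any past the spread-adjusted rule, are named, with the 5 genes nearest Nrxn2. One list of related genes is not reported here. Members, lists and rules were chosen with earlier results of these data known. With 1 library per group and members chosen from these values, no p-value was computed. Alternatives were DESeq2 1.42.0 size factors, total counts, other read and fold minimums and the spread-adjusted interval.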

Additional observations from a re-analysis of the deposited data

Results flagged for a closer look

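The ES difference ran in opposite directions at the 2 days for 4 genes called at both by the size rule, with 1 library per group, so the change of direction was not tested. Taking the log2 difference of ES from control at 11 DIV minus that at 19 DIV, Nrxn2 gave 11.01 (3.46 and -7.56). Nrxn3 gave 10.44 (1.03 and -9.41) and Cadm3 9.80 (1.24 and -8.56), both with 0 reads in ES at 19 DIV, so these values depend on the prior count. Nlgn2 gave 2.75 (1.13 and -1.61). The genes were chosen from these values, so the change of direction is a description.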

How the results depend on the processing

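The size rule called 6 of the 9 genes in ES against control at 11 DIV, 4 at 19 DIV, 4 in control over time and 5 in ES over time. DESeq2 size factors, total counts and a minimum of 10 reads gave the same 4 counts. A minimum of 200 reads gave 5 at 11 DIV and left the others. With a 4-fold minimum the counts were 2 at 11 DIV, 3 at 19 DIV, 2 in control over time and 4 in ES over time. With a 1.5-fold minimum they were 6, 6 (1 higher and 5 lower), 7 and 6 in the same order. With the spread-adjusted interval they were 1 at 11 DIV, 2 at 19 DIV, 2 in control over time and 1 in ES over time, since divided counts widen each interval. Of 48 folds recomputed under the 2 other scalings, 45 stayed within their counting interval, 3 left it and 0 changed direction. Total counts moved every log2 difference against control at 11 DIV by 0.13. No replicate could be left out. No paired analysis was possible because each group had 1 library and the labels give no replicate numbers. The neuroligins had at most 525 reads. By the 3-read floor, which covers counting error only, a level of Nlgn1 or Nlgn3 under 0.376 to 0.518 CPM could not be seen. With the spread factor, the upper ends for their counts of 0 were 107 to 148 CPM, so higher levels could have been missed too.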

Other observations

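Of 12 adhesion genes of the L1, contactin and NCAM families tested by the size rule in ES at 11 DIV, 7 were higher and 0 lower, beside 28.9% of all rows higher and 29.6% lower. At 19 DIV 0 of 12 were higher and 5 lower, beside 29.4% and 31.3%. In control 6 of 12 were higher at 19 DIV and 0 lower, and in ES 1 of 13 was higher and 7 lower, beside 30.9% and 29.8% of all rows in control and 30.9% and 30.5% in ES. No gene of this list passed the spread-adjusted rule, and the counts were not tested. Ncam1, the neural cell adhesion molecule, had 4261 and 4739 reads in control and ES at 11 DIV and 5784 and 6696 at 19 DIV, or 1.09 times control (spread-adjusted 0.572 to 2.08) and 0.999 times (0.562 to 1.79). Chl1, an L1 relative, had 2670 and 4793 reads and then 5551 and 7670, or 1.76 times (0.851 to 3.79) and 1.19 times control (0.681 to 2.12).

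Of 15 LAR-type receptor phosphatases and their partners, 5 were higher and 2 lower of 9 tested in ES at 11 DIV, and 3 higher and 3 lower of 10 at 19 DIV. Over time 5 of 8 were higher and 1 lower in control, and 3 of 9 higher and 1 lower in ES. The shares of all rows are those given for the L1, contactin and NCAM families, and nothing is read from the counts. Ptprf, the phosphatase LAR, had 2311 and 2347 reads at 11 DIV and 6430 and 4937 at 19 DIV in control and ES. It was 2.34-fold higher at 19 DIV in control (1.1 to 5.38), the 1 call of this list by the spread-adjusted rule, and 1.56-fold higher in ES (0.675 to 3.9). Ptprs had 324 and 664 reads and then 838 and 803, or 2.17-fold higher at 19 DIV in control (0.246 to 45.3).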
